A study of Saccharomyces cerevisiae with 16 samples.

Results

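In 3 places of the budding yeast genome a small open reading frame ends just before the start of a larger gene on the same strand, and 40S ribosomal subunits that carried an initiation factor left footprints over the small frame. The pairs were MIN9 (YKL023C-A) before URA6 (YKL024C), YGR025W before YGR026W, and YKR073C before SIS2 (YKR072C), together 6 of the 5818 genes counted. They were chosen because the coding-region footprints of the small frame were higher on factor-bound than on unselected 40S, and because under 200 nt separate the frame from the next start. The values of the small frames in that contrast are therefore given as a description, with no test, and tests are kept to the 3 downstream genes.

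The study measured footprints of translation complexes by TCP-seq, in which formaldehyde holds ribosomal subunits on mRNA and RNase I trims what they do not cover. Unlike ribosome profiling of whole 80S ribosomes, it also records the small subunit alone, which scans a leader (5′ UTR) before initiation and can stay on mRNA after termination. All cells grew in YPD medium at 30 °C and were fixed for 1 h on ice with 0.8% formaldehyde. Unselected 40S came from 3 strains, SY182 with FLAG on eIF3a/TIF32, H25 with FLAG on eIF3c/NIP1 and SY194 with FLAG on eIF2beta/SUI3. Factor-bound 40S came from the same 3 strains through an anti-FLAG precipitation, which selects subunits that still hold that factor. The controls thus carry the tags too, each factor has 1 library, and the factor and the strain cannot be told apart. No label says that libraries came from separate cultures, so p-values measure only the spread between these libraries.

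Initiation factors eIF3 and eIF2 are bound to the 40S subunit while it scans from the cap to a start codon. eIF2 delivers the initiator tRNA, and eIF3 helps to recruit and stabilise the complex. An upstream open reading frame (uORF) is a short frame in the leader of an mRNA. A ribosome that translates it must either leave the mRNA or resume scanning to reach the main start codon, and eIF3 is known to help 40S subunits to resume scanning at GCN4, the classic yeast case. Annotated small genes that end close before another gene can lie on that gene's mRNA in the same way, but the annotation alone does not show that they do.

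Depth ranged from 1595793 to 2800652 counts for unselected and from 3403297 to 4486412 counts for factor-bound 40S. Coding regions held 28.1 to 32.6% of the counts of the unselected libraries and 11.9 to 17.7% of the factor-bound ones. Leaders held 9.09 to 9.89% and 18.6 to 25.1%. Because the areas moved so differently, folds in a test are relative to the median gene of the same area. Scaled on all areas together, the median gene was 1.28 log2 units higher in its leader, 0.54 higher at its start codon and −0.81 in its coding region on factor-bound 40S.

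MIN9 spans chromosome XI from 393146 to 393373 on the Crick strand (RefSeq table of build R64). Its end lies 5 nt before URA6, which spans 392526 to 393140 on the same strand and encodes uridylate kinase, the enzyme that makes UDP from UMP for pyrimidine nucleotides. YGR025W spans chromosome VII from 532639 to 532941 on the Watson strand. It ends 43 nt before YGR026W, at 532985 to 533821. YKR073C spans chromosome XI from 578187 to 578507 on the Crick strand. It ends 63 nt before SIS2, at 576435 to 578123. SIS2, also called HAL3, encodes an inhibitor of the protein phosphatase Ppz1 and a part of the decarboxylase of coenzyme A synthesis. The frames are 228, 303 and 321 nt long, the genes after them 615, 837 and 1689 nt, and none of the 6 overlaps another gene listed in that table.

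MIN9 carried by far the most footprints of the small frames. Its coding region held 656, 350 and 477 counts in unselected 40S of strains SY182, H25 and SY194. The eIF3a-, eIF3c- and eIF2β-bound libraries of these strains held 2135, 2770 and 3488 counts. Every factor-bound library was above every unselected one after scaling to depth, as in 2.9% of 4797 coding regions, at 676 ± 87.7 against 235 ± 16.4 CPM (counts scaled to an equal total in every library; SD, 3 libraries each). That is a ratio of 2.87, or 2.65 log2 units above the median coding region. Per length, MIN9 had 1032 CPM per kilobase in its coding region in unselected 40S, higher than 98.7% of 5776 genes, and 2966 in factor-bound 40S, higher than 99.9%. The median gene went the other way, from 10.3 to 5.01.

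The footprints of MIN9 reached past its stop codon. The stop codon held 133, 45 and 90 counts in unselected and 328, 412 and 367 in factor-bound 40S, and the groups did not overlap in CPM, as in 3.82% of 497 stop codons. The start codon, the entry point of initiation, held 16, 6 and 7 counts against 17, 35 and 34. The leader held 12, 7 and 6 against 4, 4 and 19, most of the last group's counts being in the eIF2β-bound library. Scaled to depth, both of these areas overlapped between the groups. The 3′ UTR held 173, 62 and 51 counts against 126, 113 and 94. In CPM it was 42.5 ± 17.7 in unselected and 27.8 ± 8.29 in factor-bound 40S, with overlapping groups, unlike the coding region. Relative to the median gene of the same area, the 3′ UTR was at 0.71 log2 units (SE 0.35) and the coding region at 2.65. The stop codon was at 3.26 (SE 0.29), the start codon at 0.36 (SE 0.35) and the leader at −1.94 (SE 0.57). Within MIN9 the coding region took 72.1 ± 5.09% of all counts in unselected and 84.0 ± 2.80% in factor-bound 40S, while the 3′ UTR took 12.9 ± 4.70% and 3.52 ± 1.24%.

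URA6, directly after MIN9, had almost no footprints listed in its own leader and start codon. Its leader was at 0 counts in all 6 libraries and its start codon held 1 count in the unselected and 1 in the eIF3a-bound library of strain SY182. The 0 counts allow up to 0.669 to 1.88 CPM, depending on the library, which covers counting error only. That bound applies to footprints assigned to URA6. MIN9, with counts of its own, ends 5 nt ahead, so the bound sets no limit for the RNA there. Neither the leader nor the start codon of URA6 could be tested. The coding region of URA6 held 83, 66 and 75 counts in unselected and 44, 80 and 46 in factor-bound 40S, which did not overlap in CPM (36.9 ± 6.33 against 13.7 ± 3.94). Of all tested coding regions 66.1% were likewise lower in every factor-bound library. Relative to the median coding region, URA6 was −0.35 (SE 0.23), with an adjusted p of 0.272 in edgeR's quasi-likelihood test. Scaled on all areas it was −1.16 and passed, where 2385 of 4797 coding regions fell and the median coding region was at −0.81. MIN9 held 88.8 ± 2.71% of the counts of the pair in unselected 40S and 98.1 ± 0.717% in factor-bound 40S. This share includes the coding counts that MIN9 was chosen on.

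YGR025W was sparse, and most of its footprints were listed past its stop codon, in its 3′ UTR. The leader and the start codon had 0 counts in all 6 libraries. The coding region held 4, 4 and 1 counts in unselected and 17, 28 and 24 in factor-bound 40S. The stop codon held 4, 1 and 6 against 17, 52 and 29, and the 3′ UTR 30, 20 and 11 against 75, 86 and 78. In each of these areas every factor-bound library was above every unselected one in CPM, with 1.49 ± 0.990 against 5.55 ± 0.677 in the coding region and 9.69 ± 3.47 against 19.6 ± 2.33 in the 3′ UTR. Of all those tested, 2.9% of 4797 coding regions, 3.82% of 497 stop codons and 2.07% of 725 3′ UTRs were higher in this way. The 3′ UTR alone took 73.4 ± 10.6% of the gene's counts in unselected and 60.1 ± 8.51% in factor-bound 40S. The coding region took 10.7 ± 5.22% and 16.9 ± 1.36%. The start of YGR026W lies 43 nt past the frame, and no label says where the 3′ UTR area ends. With 1 to 4 unselected coding counts the ratio is poorly held. In strain SY194 it was 10.1, with a 95% exact interval from 1.65 to 416.

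YGR026W, the gene after it, had most of its footprints ahead of its coding region. Its leader held 190, 158 and 199 counts in unselected and 621, 988 and 1133 in factor-bound 40S. In CPM the leader was at 90.7 ± 20.02 and 219 ± 35.2, a ratio of 2.42 with no overlap, as in 63% of 2036 leaders. Scaled on all areas this is 1.55 log2 units, which passed the test, where 1512 of 2036 leaders rose and the median leader was at 1.28. The area-scaled fold was 0.27 log2 (SE 0.22), with an adjusted p of 0.730 in edgeR. In that area 0% of 2036 leaders rose and 1.67% fell; 217 had an unadjusted p under 0.05, and DESeq2 called 2 rises. With the strain as a block 32 leaders rose and 105 fell, and leaving out any 1 library gave 8 to 22 falls.

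The start codon of YGR026W held 99, 50 and 76 counts in unselected and 167, 276 and 188 in factor-bound 40S. Its fold was 0.24 (SE 0.22), with an adjusted p of 0.533 in edgeR, where 1.34% of 3868 start codons rose and 5.12% fell. With the block 486 start codons rose and 628 fell, and leaving out any 1 library gave 1 to 18 rises and 45 to 130 falls. The coding region held 50, 49 and 33 counts against 18, 43 and 21. It was −0.66 (SE 0.32) relative to the median coding region, with an adjusted p of 0.147 in edgeR. With the strain as a block, which is how the libraries are paired, the value was −0.69 and passed, with an adjusted p of 0.0448. Scaled on all areas it was −1.46 and passed too, where 2385 coding regions fell and the median coding region was at −0.81. Among 4797 coding regions, 14.4% rose and 11.8% fell on the area scale without the block. With the block 954 coding regions rose and 823 fell. Within YGR026W, the leader's share went from 59.0 ± 4.49% to 78.4 ± 4.84% and the coding share from 14.4 ± 3.84% to 2.34 ± 0.861%. Neither share overlapped between groups, and each gave an exact permutation p of 0.1 (two-sided), the smallest that 3 libraries against 3 can give (0.2 adjusted over 6 such tests). Shifts of this kind ran through the libraries. Of 3955 genes with at least 20 counts in every library, 48.3% had a leader share that was higher in every factor-bound library and 66% a coding share that was lower in every one. URA5 went from 62.3 to 79.5% in its leader and from 11.2 to 3.73% in its coding region. It was picked as the gene most like YGR026W in these shares over all 6 libraries, so its match is no separate result.

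The footprints of YKR073C were spread over coding region, stop codon and 3′ UTR. Like YGR025W it had 0 counts in its leader and at its start codon in all 6 libraries. Its coding region held 11, 9 and 7 counts in unselected and 45, 51 and 65 in factor-bound 40S. Its stop codon held 13, 5 and 18 against 72, 68 and 105, and its 3′ UTR 13, 8 and 6 against 49, 38 and 51. In CPM every factor-bound library was above every unselected one in each of these areas. So were 2.9% of 4797 coding regions, 3.82% of 497 stop codons and 2.07% of 725 3′ UTRs. The coding counts are those YKR073C was chosen on, and its unselected counts are low. The whole gene was at 14.5 ± 1.69 against 44.5 ± 7.89 CPM. Within YKR073C the shares of the areas overlapped between groups. The stop codon took 38.6 ± 17.9% in unselected and 44.7 ± 2.41% in factor-bound 40S. Averaged over the 6 libraries that is 41.7%, higher than in 99.8% of 3955 genes with at least 20 counts in every library, whose median is 1.49%. For MIN9 the same share was 11.9%, and for URA6 6.65%.

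Relative to the median gene of each area and without the block, SIS2 had the 1 call among the 3 downstream genes, in its coding region, in a test where 11.8% of all coding regions fell. The region held 65, 23 and 43 counts in unselected and 14, 29 and 12 in factor-bound 40S, or 20.1 ± 4.95 against 4.44 ± 1.95 CPM. Relative to the median coding region it fell by 1.14 log2 units (SE 0.32), with an adjusted p of 0.0210 in edgeR. With the strain as a block the value was −1.13, with an adjusted p of 0.00273 in edgeR, where 823 coding regions fell. DESeq2 gave −1.15 and 0.0348. Without the block, the call was lost when any 1 of 4 libraries was left out. The adjusted p in edgeR was then 0.0854 without unselected SY182 and 0.0600 without unselected SY194. It was 0.0605 without the eIF3a-bound and 0.0652 without the eIF2β-bound library. In these 4 fits the value stayed between −1.10 and −0.98.

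Ahead of the coding region, SIS2 differed less between the groups. Its leader held 36, 20 and 9 counts against 55, 48 and 106, at 10.05 ± 4.58 and 16.9 ± 6.44 CPM, and the groups overlapped. The area-scaled fold was −0.32 (SE 0.38), with an adjusted p of 0.826 in edgeR, and 1.01 on the scale of all areas (adjusted p 0.0399). On the scale of all areas 1512 of 2036 leaders rose, and the median leader was at 1.28, above SIS2. Without the unselected library of SY182 the leader of SIS2 was at 0.02 on the scale of leaders. The eIF2β-bound leader was 4.97 times the unselected one of its strain (95% interval 2.52 to 11.2), which held 9 counts, the eIF3a-bound 1.26 times (0.811 to 1.97) and the eIF3c-bound 0.862 times (0.502 to 1.53). These intervals cover counting error only, and with 1 library of each kind per strain a difference between strains was not tested. The start codon held 26, 11 and 22 counts against 51, 52 and 48, a fold of 0.15 (SE 0.29) with an adjusted p of 0.798 in edgeR.

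**Figure D1:**
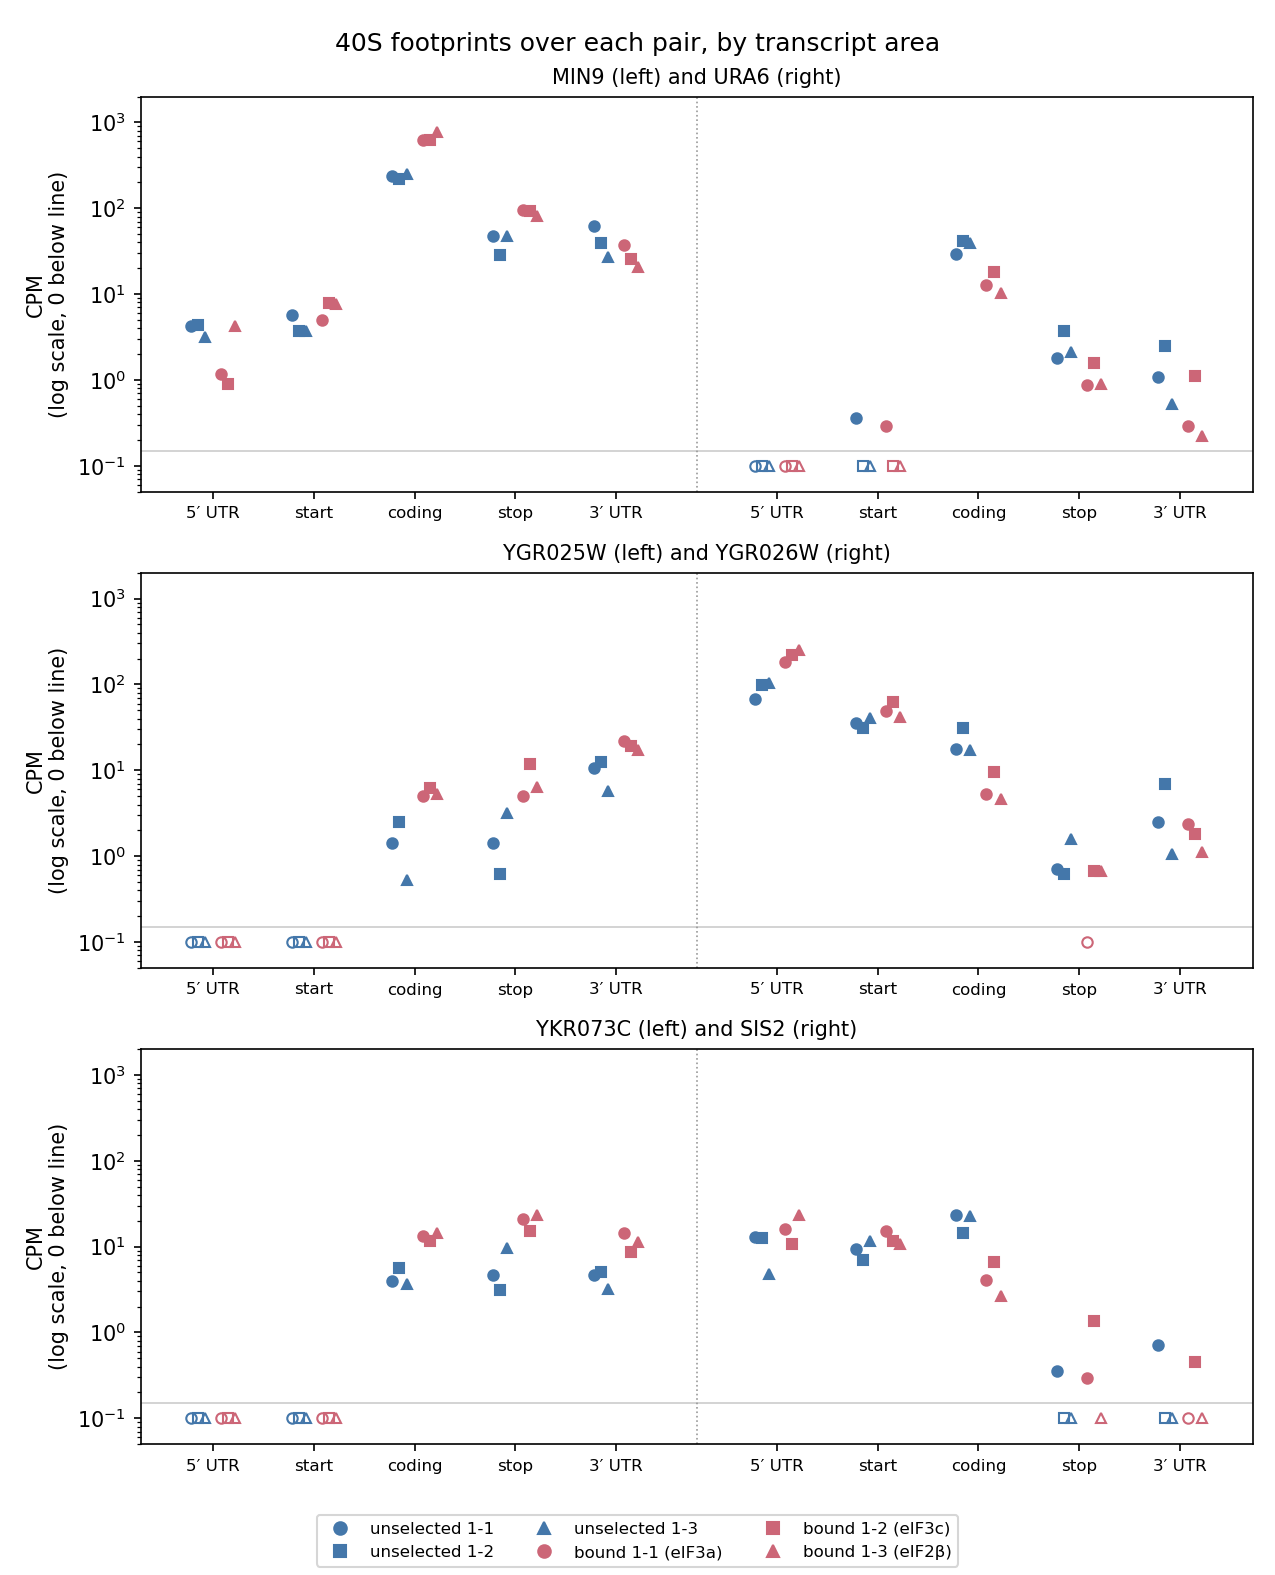
Scaled counts (CPM) in each area of each gene (log scale; open symbols below the grey line are 0 counts), with the small frame on the left and the downstream gene on the right; symbols mark the strain (1-1 SY182, 1-2 H25, 1-3 SY194), blue unselected and red factor-bound 40S. The red coding-region points of each small frame sit above the blue ones (as in 2.9% of 4797 coding regions), those of each downstream gene below (as in 66.1%). The leader and start codon of YGR025W and YKR073C are at 0 in all 6 libraries.

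The share of the counts of the gene that fell in each area shows the same 6 genes without regard to depth. URA6 kept its shape, with 90.3 ± 3.45% of its counts in the coding region of unselected and 89.0 ± 1.77% of factor-bound 40S. In SIS2 the coding share was 50.2 ± 7.76% and 13.3 ± 7.13% (exact permutation p 0.1, two-sided, adjusted 0.2), a direction shared without overlap by the 66% of genes given above. In SGF73 it was 52.4% and 15.9%, but SGF73 was picked as the gene most like SIS2 in these shares, so its match is no separate result. The leader's share in SIS2 was 25.6 ± 12.6% and 48.1 ± 14.6% and the start codon's 23.4 ± 5.51% and 36.3 ± 6.76%, each with an exact p of 0.2 (adjusted 0.24).

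**Figure D2:**
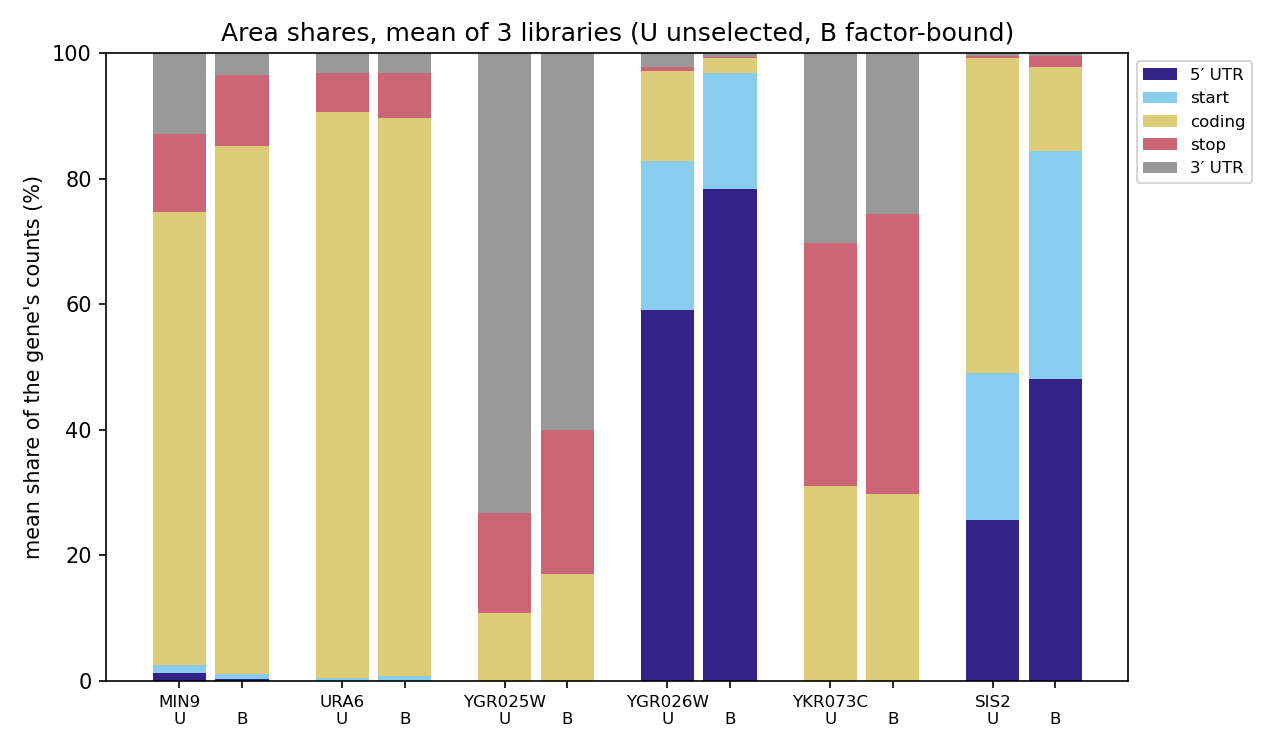
Mean share (%) of a gene's counts in each of 5 transcript areas, for 3 unselected (U) and 3 factor-bound (B) 40S libraries. YGR026W and SIS2 have less of their counts in the coding region in B (2.34 and 13.3%) than in U (14.4 and 50.2%), while YGR025W and YKR073C have no leader or start codon counts.

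Each factor-bound library can also be set against the unselected library of its own strain. MIN9's coding region was 2.68 times higher with eIF3a (95% interval 2.45 to 2.93), 2.84 times with eIF3c (2.54 to 3.19) and 3.08 times with eIF2β (2.80 to 3.40). YKR073C gave 3.37 (1.71 to 7.22), 2.04 (0.993 to 4.70) and 3.91 (1.796 to 10.1). SIS2's coding region went the other way in each strain, at 0.177, 0.453 and 0.118 times. In CPM, 66.1% of all tested coding regions were lower in every factor-bound than in every unselected library, and 2.9% were higher. These intervals cover counting error only, and with 1 library per factor they compare libraries, not factors.

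**Figure D3:**
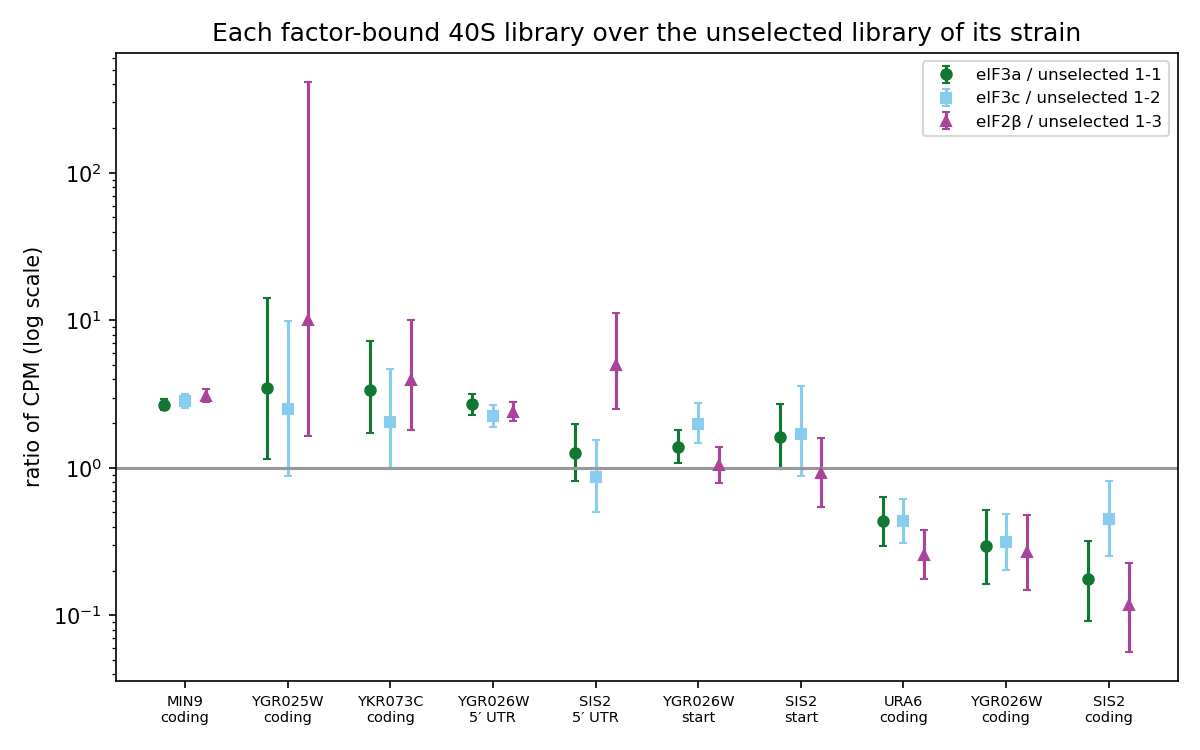
Ratio of CPM (log scale) of each factor-bound 40S library to the unselected library of its strain, with exact 95% intervals for counting error. The small frames' coding regions lie above 1 in each strain (MIN9 2.68, 2.84 and 3.08), the downstream coding regions below 1, and the leader of SIS2 is spread from 0.862 to 4.97. In CPM, 66.1% of 4797 coding regions were lower in every factor-bound than in every unselected library.

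Frame and downstream gene may share footprints, and no label says how the authors split overlapping areas. In the YKR073C and SIS2 pair the frame held more counts in its 5 areas than the leader of SIS2 in all 6 libraries, at 37, 22 and 31 against 36, 20 and 9 in unselected 40S and 166, 157 and 221 against 55, 48 and 106 in factor-bound 40S. The leader of SIS2 can therefore not hold all of them. YGR025W held fewer counts than the leader of YGR026W in every library. MIN9 held 470 to 4002 counts where the leader of URA6 was listed at 0. As a ratio free of library scaling, coding counts of YKR073C per start codon count of SIS2 were 0.423, 0.818 and 0.318 in unselected and 0.882, 0.981 and 1.35 in factor-bound 40S. For YGR025W and YGR026W the ratios were 0.0404, 0.0800 and 0.0132 against 0.102, 0.101 and 0.128. The numerators are the values the frames were chosen on, so the lack of overlap between groups in both pairs is no separate result. How often other frames lack overlap in this ratio was not counted. YKR073C held 26.9 ± 4.10% of its pair's counts in unselected and 56.1 ± 2.38% in factor-bound 40S. For YGR025W it was 7.93 ± 2.26% and 10.6 ± 1.56%, with overlapping groups. These shares too include the counts the frames were chosen on.

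The RefSeq table holds 53 other pairs of the same kind, with a frame of at most 400 nt that ends under 200 nt before the next start on its strand. Of these frames 17 were tested in the coding region, 12 rose and 1 fell, where 14.4% of all coding regions and 115 of 298 genes of up to 400 nt (38.6%) rose. The share depends on the filter on low counts. Without it, 12 of 47 frames rose (25.5%), against 113 of 510 genes of up to 400 nt (22.2%) and 12.1% of all genes. DESeq2, with its own filter, called rises in 12 of 18 frames, against 102 of 299 genes of up to 400 nt (34.1%) and 12.1% of all genes. A frame that passed the filter only through the factor-bound libraries had to differ, so the count was repeated over frames that passed it in each unselected library, a choice made after the data were seen. Of 10 such frames 7 rose, against 564 of 4190 genes (13.5%) and 88 of 236 genes of up to 400 nt (37.3%). MIN9 passed in that way, while YGR025W and YKR073C passed only through the factor-bound libraries. Scaled on all areas together, 9 of the 20 tested frames rose in place of 15, MIN9, YGR025W and YKR073C counted in. On that scale 180 of 4797 coding regions rose. MIN9, YGR025W and YKR073C stood at 1.79, 2.18 and 1.85 log2 units. The 36 frames left untested had at most 74 coding counts over the 6 libraries, 6 of them none.

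Frames of up to 400 nt can also be grouped by their distance to the next start. MIN9, YGR025W and YKR073C, chosen for their rise, are left out here. With a gap of under 100 nt, 6 of 7 tested frames rose, with a gap of 200 to under 400 nt 14 of 44 (31.8%), and with a gap of 400 nt or more 81 of 224 (36.2%). Over frames that passed the filter in each unselected library, it was 3 of 4, 9 of 36 (25%) and 67 of 182 (36.8%). Frames of any length with a gap under 200 nt, here with MIN9, YGR025W and YKR073C counted in, rose in 33 of 146 cases (22.6%). These shares are a description, with no test of their difference.

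**Figure D4:**
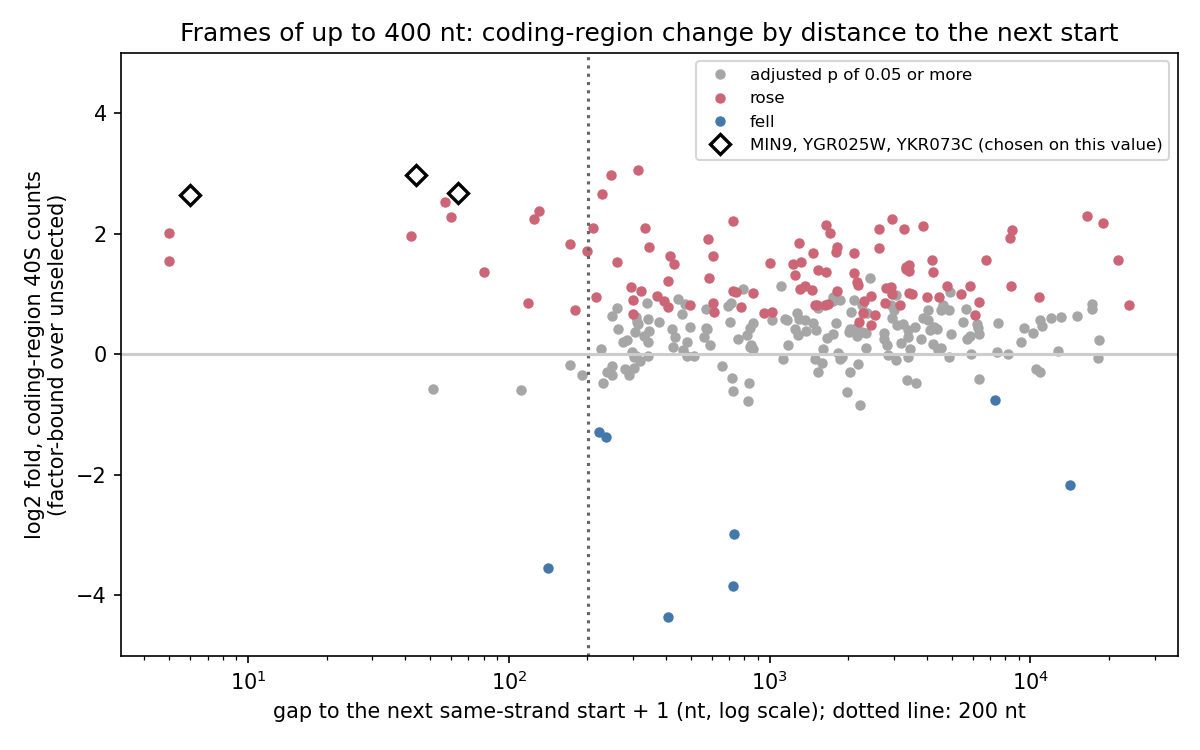
Log2 fold of coding-region 40S counts, factor-bound over unselected, relative to the median coding region, against the gap to the next same-strand start plus 1 nt (log scale), for 288 tested frames of up to 400 nt. Red frames rose, blue fell, grey did not pass the adjusted p of 0.05, and diamonds mark MIN9, YGR025W and YKR073C, at 2.65, 2.97 and 2.68, which were chosen on this value; of the 7 other frames with a gap under 100 nt, 6 rose.

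Among the other pairs, the frame with the largest rise was YOR302W, the uORF that encodes the arginine attenuator peptide of CPA1, a subunit of the carbamoyl phosphate synthetase for arginine. It ends 56 nt before CPA1. Its coding region held 43, 39 and 103 counts in unselected and 164, 229 and 586 in factor-bound 40S, a rise of 2.54 log2 units (SE 0.53) with an adjusted p of 0.00447 in edgeR. In contrast to YGR025W and YKR073C its start codon was occupied, with 63, 30 and 123 counts against 109, 190 and 533. The SY194 libraries were the highest of each group. CPA1 itself was at −0.65 in its coding region, with an adjusted p of 0.112 in edgeR and 0.0135 with the strain as a block. With the block 954 coding regions rose and 823 fell.

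DMO1, 130 nt before ATP2, which encodes a subunit of the mitochondrial ATP synthase, rose by 2.37 (SE 0.23). It had 714, 584 and 670 coding counts in unselected and 2229, 3346 and 3982 in factor-bound 40S, and its start codon held 1 count in all 6 libraries together. ATP2's own coding region fell by 0.69, with an adjusted p of 0.0498 in edgeR (0.00124 with the block, where 954 coding regions rose and 823 fell). That call was lost without any 1 library other than the eIF3c-bound, with an adjusted p of up to 0.184. YHR050W-A, 59 nt before COX6, a subunit of cytochrome c oxidase, rose by 2.29 (SE 0.22). It had 413, 319 and 343 against 1109, 1898 and 1932 coding counts, and COX6's coding region rose by 0.84 relative to the median coding region, with an adjusted p of 0.0212 in edgeR (0.000700 with the block). The call was lost without unselected SY182, unselected SY194 or the eIF3a-bound library (up to 0.0847), and scaled on all areas COX6 was at 0.04.

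The other 5 of the 8 largest rises were YPR096C before SYT1 (2.24), YBL008W-A before HIR1 (2.01), YGR045C before RME1 (1.97), MAK31 before PET18 (1.83) and YGR039W before KSS1 (1.72). HIR1 acts in repression of histone genes, RME1 is a repressor of meiosis and KSS1 a kinase of filamentous growth. The call on YGR045C was lost without unselected SY182 or SY194 (adjusted p up to 0.0615 in edgeR), and that on YGR039W without unselected H25 or SY194, the eIF3c-bound or the eIF2β-bound library (up to 0.0831). YGR039W, with a gap of 198 nt, lies just inside the limit. Just outside it, at 205 nt, MCO14 and YHR212W-A were not tested, while YMR001C-A, 210 nt before the polo kinase gene CDC5, stood at 2.09. The 4 tested frames with no call were BOL3, MIC12, MIC10 and YLR342W-A, and YOR072W-B fell by 3.55. These 5 are named after their values were seen, and YOR072W-B overlaps a tRNA gene.

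Calls among the genes after these frames went both ways. Over all 56 pairs, 45 downstream coding regions were tested, 3 rose and 6 fell, where 14.4% and 11.8% of all coding regions did. Of 38 start codons 0 rose and 2 fell, where 1.34% and 5.12% of all did, and of 18 leaders 0 rose and 1 fell, where 0% and 1.67% did. Their median folds were −0.13, 0.07 and −0.07.

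An empty start codon, as in YGR025W and YKR073C, was common among such frames. Of the 56 frames 25 had 0 start codon counts in all 6 libraries, as did 503 of all 5818 genes (8.65%). Among frames with at least 60 coding counts in all it was 5 of 20, and among all genes with as many 103 of 4781 (2.15%). YGR025W and YKR073C both had at least that many coding counts.

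The genes with the most similar spread over the 5 areas were found by the share of counts that would have to move between areas to match, averaged over the 6 libraries, among 3954 genes. For YKR073C they were DMO1 (11.5%), PLS1 (14.8%) and YGR045C (16.8%), against a median of 68.5% over all genes. Each of the 3 is itself a small frame before a start, of ATP2, RAS2 and RME1. The gaps are 130, 226 and 41 nt, so PLS1 lies outside the limit of 200 nt. The start codons of the 3 frames held at most 1 count in a library, and their stop codons took 36.3, 35.4 and 49.1% of their counts. MIN9 was nearest to MIX23 (9.91%), HMS2 and PET54, with a median of 55.9%. URA6 was nearest to BOL2 (3.83%), MET7 and RSE1, each at 0 in leader and start codon. YGR026W was nearest to URA5 (4.38%), BCY1 and YDJ1, and SIS2 to SGF73 (9.51%), MKT1 and ERG7. YGR025W had under 20 counts in a library and was not compared.

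Of 10 genes of uridine nucleotide synthesis, the pathway of URA6, 9 were tested in the coding region. URA2, which encodes the enzyme of the first steps, fell by 1.28 (adjusted p 0.000874 in edgeR), 0 rose, and the median was 0.05. A count of 1 in 9 is near the 11.8% of all coding regions that fell. None of 8 start codons and none of 7 leaders passed the test. A list of 9 genes held SIS2 itself and those linked to it through coenzyme A synthesis and the phosphatase Ppz1. All were tested in the coding region. CAB4, an enzyme of coenzyme A synthesis, rose by 1.27 (adjusted p 0.0388 in edgeR), and stood at 0.40 scaled on all areas. The call was lost without unselected SY182 or SY194, the eIF3c-bound or the eIF2β-bound library (up to 0.165). PPZ1, the phosphatase that Sis2 inhibits, fell by 1.02 (adjusted p 0.0316 in edgeR, 0.0712 in DESeq2), and SIS2 fell as given above. PPZ1 was not called without unselected SY182 or SY194, the eIF3a-bound or the eIF2β-bound library (up to 0.130). The list thus had 1 rise and 2 falls in 9, 1 of the falls being SIS2 itself, where 14.4% and 11.8% of all coding regions did. The median was −0.09, and 0 of 8 start codons and 0 of 5 leaders passed.

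Of 17 genes known for uORFs or long leaders, 11 start codons, 14 coding regions and 9 leaders were tested. CLN3, a G1 cyclin with a uORF, rose at its start codon by 1.499 (adjusted p 0.0379 in edgeR), with 8, 4 and 8 counts in unselected and 39, 57 and 38 in factor-bound 40S, where 1.34% of all start codons rose. DESeq2 gave it 0.0542, and the call was lost when any 1 of the 6 libraries was left out (up to 0.153 in edgeR). TIF4631, which encodes eIF4G1, and LEU4, of leucine synthesis, fell in their coding regions by 1.25 and 1.37 (adjusted p 0.00116 and 0.00837 in edgeR), a count of 2 in 14 near the 11.8% of all coding regions that fell. No leader of the list passed, and its median fold was 0.21 in leaders, −0.07 at start codons and −0.13 in coding regions.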

How the data were processed

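The authors deposited whole-number footprint counts per gene in 5 transcript areas for 6 libraries of 40S, not normalized. The labels do not say how footprints were assigned to areas, to strands or in repeats, so reads from overlapping or near-identical genes are uncertain. Per the submitters' processing notes, the tools were TopHat2 2.1.0, Bowtie2 2.2.6, Bowtie 1.2.2 and CASAVA 1.8, and the build was R64. RNA of about 18 to 85 nt was sequenced, per the labels. The table heads the third factor-bound column eIF2α and the labels eIF2β, which is the name used here. Every column used had a sample.

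Of 5818 gene IDs, 5776 were found in the RefSeq table (R64) and 42 were not, and 75 genes held no count. Positions come from that table, strands from the W or C of the systematic name. Over all genes of an area, edgeR 4.0.16 was run in R 4.3.3 (limma 3.58.1) with filterByExpr, TMM on the area, the quasi-likelihood test and Benjamini-Hochberg adjustment at 0.05. The standard error is that of the log2 fold. The code was tested on simulated data. Areas of the frames used the same contrast as the choice of the frames, so no p is given for them. Shares within a gene were compared by exact permutation tests with SciPy 1.17.1, under Python 3.11.15 with pandas 2.3.3, NumPy 2.4.6 and matplotlib 3.10.9.

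Alternatives were TMM on all areas, DESeq2 1.42.0, no filter, the strain as a block, and omission of each library. Libraries of the 2 groups with 1 number come from 1 strain, and their departures from the mean of the group were correlated (0.43, 0.39 and 0.39 in leaders, 0.58, 0.47 and 0.42 at start codons, 0.31, 0.25 and 0.24 in coding regions), so the block pairs the samples. No pair of libraries was as similar as sampling noise allows (chi-square per degree of freedom 10.5 to 35.7).

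The members and the gene lists were chosen with earlier results of these data known. Named are the 6 members, the up to 8 other frames with the largest called rise, the up to 3 nearest pairs outside 200 nt, the 3 genes nearest in area profile to each member with at least 20 counts in every library, and list members past the threshold, at most 3 a list.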

Additional observations from a re-analysis of the deposited data

How the results depend on the processing

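Scaling on all areas together changed most values, since it shifts whole areas: 1512 leaders rose, 943 start codons rose and 92 fell, and 180 coding regions rose and 2385 fell. On it YGR026W was at 1.55 in its leader, 0.77 at its start codon and −1.46 in its coding region, URA6 at −1.16 in its coding region, and the leader of SIS2 turned to 1.01. The frames of the same kind that rose, here and below with MIN9, YGR025W and YKR073C counted in, were 9 of 20, in place of 15. DESeq2 called 2 rises in leaders and 85 at start codons. Without the filter 3 leaders rose and 62 fell. With the strain as a block (the pairing of libraries), 32 leaders rose and 105 fell, 486 start codons rose and 628 fell, and 954 coding regions rose and 823 fell. The coding region of YGR026W, at −0.69, passed with the block, and no other call on URA6, YGR026W or SIS2 changed. Leaving out 1 library gave 8 to 22 falls in leaders, 1 to 18 rises and 45 to 130 falls at start codons, 473 to 697 rises and 350 to 532 falls in coding regions (377 without unselected SY182 and 350 without unselected SY194, in place of 568), and 11 to 15 rising frames. The leader of SIS2 ranged from −0.57 to 0.017, its coding region from −1.44 to −0.98 and that of YGR026W from −0.94 to −0.39. Frames of the same kind, MIN9, YGR025W and YKR073C counted in, rose in 9 of 10 cases with a gap under 100 nt. At any length it was 33 of 146, where 14.4% of all coding regions rose. Of 11 frames that passed the filter in unselected 40S, MIN9 among them, 8 rose, against 13.5% of all genes that passed. MIN9, YGR025W and YKR073C were chosen for their rise. The count of 8 in 11 and the refits of the frame count and of the other named genes were added after seeing the data. With start and stop codon added to the frame, the ratio to the downstream start was 0.0910 and 0.2585 for YGR025W and 1.11 and 2.71 for YKR073C, unselected and bound. The cause of these shifts was not tested beyond what each setting changes by construction. Low counts limit YGR025W, and the areas of YKR073C in unselected 40S.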
